A study of Mus musculus with 8 samples.

Results

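The potassium channel subunit genes of mouse retina were taken as all genes whose symbol starts with Kcn followed by a family letter and holds a digit, and a gene with several probe sets was read from the one brightest on average over the 8 arrays. The genes Kcne2, Kcnv2 and Kcnj10 were left out by the same rule. This gave 77 genes, covered by 152 probe sets, of 18193 genes with a single symbol in the platform annotation. Of the 77, 74 encode proteins and 3 are long non-coding RNAs named after a channel gene (Kcnq1ot1, Kcnmb4os1 and Kcnmb4os2). RNA of 4 freshly dissected control retinas, labelled as time 0 d, and of 4 injected retinas had been hybridised to Affymetrix arrays, 1 retina sample per array. The labels call the injected group a compound-based treatment and give no compound, dose, route or interval, and they name no strain, age or genotype for either group. No sham-injected group was compared, so the injection, the compound and handling cannot be told apart. Separate animals are not stated for the samples, so p-values reflect only how these samples scatter, and some of that scatter can be technical.

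Potassium channels let potassium ions leave or enter a cell and so set its resting voltage, end its action potentials and pace its firing. Voltage-gated channels are assembled from pore subunits with accessory beta subunits. Inward rectifiers hold the resting voltage, carry potassium away from active neurons in glia and answer to G proteins. Two-pore domain channels carry the background leak, and calcium-activated channels link calcium entry to repolarisation. In retina these channels shape the light response of photoreceptors, the transient signals of inner neurons, the spikes of ganglion cells and the potassium buffering of Müller glia and pigment epithelium.

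None of the potassium channel genes passed the adjusted threshold. Of the 77 genes 51 had a mean signal at or above the floor (log2 value 8.5, the 40th percentile of all probe sets) and were tested with limma over 27022 probe sets, and 26 lay below it. At an adjusted p under 0.05 limma called 0 of the 51, and 0 of all genes tested (0% in either direction). At an unadjusted p under 0.05 there were 13 members, or 25.5%, against 6.68% of the 12886 genes tested. Of these 13, 4 were higher in injected retina (7.84%, against 3.77% of all genes) and 9 were lower (17.6%, against 2.91%). The split moved with the scaling of the arrays and with the floor. With no floor, so that all 77 members were tested, it was 6 higher and 6 lower. With the deposited scaling it was 4 higher and 5 lower, and with centring on array medians 3 and 13. Over all 27022 probe sets the main fit gave 990 higher and 899 lower. That became 1313 and 626 with the deposited scaling, and 645 and 1404 with the centring. For the members, the unmoderated test gave 4 higher and 6 lower, also with 0 past the adjusted threshold. Groups did not overlap for 7 of the 51 members (13.7%, against 5.5% of all genes), 4 higher and 3 lower (2.85% and 2.65% of all genes). The share of the members was not tested against that of all genes.

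The differences of the tested members ran from -1.14 to 1.31 log2 units, with a median of -0.23 against -0.01 over all genes tested. A log2 difference here is injected minus control on the log2(intensity + 16) scale, which understates differences of dim genes. Of the 51 members 31 had a negative difference (60.8%, against 51.5% of all genes). Centring on array medians moved the median over all probe sets to -0.15. Of the 51 members 39 were then negative, against 66.4% of all probe sets. With the deposited scaling 29 were negative, against 46.3% of all probe sets (52.4% in the main fit). The number of lower members with an unadjusted p under 0.05 moved when 1 array was left out. It was 3 without control replicate 4 and 4 without control replicate 1. It was 5 without control replicate 2 or 3 or injected replicate 1 or 3, and 8 without injected replicate 2 or 4. The number of higher members stayed between 3 and 5. The share of all probe sets in either direction, 6.99% in the main fit, moved as well. It was 5.12%, 5.04%, 5.65% and 4.90% without control replicates 1 to 4. Without injected replicates 1 to 4 it was 8.49%, 7.06%, 7.08% and 9.01%.

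Several values of the arrays moved with the groups, and others did not. Median intensity before normalisation overlapped, at 495 to 584 on control and 519 to 766 on injected arrays. The signal ratio of 3′ to 5′ control probe sets for Gapdh, a measure of RNA integrity and labelling, was 3.36 to 4.68 on control and 5.26 to 8.82 on injected arrays (two-sided exact test over all 70 label assignments, p = 0.0286, which no arrangement can undercut, and 0.0971 after adjustment over 17 such values), while the same ratio for actin overlapped (39.2 to 57.2 and 43.3 to 59.7). Both ratios were above 1 on all 8 arrays, the lowest being 3.36 for Gapdh and 39.2 for actin. Their part in the differences between probe sets of a gene was not tested. Injected replicate 3 stood farthest from its group. It held the lowest value of all 8 arrays at 16 of the 51 members and the highest at 15, against 29.5% and 27.6% of all probe sets tested. Markers of retina were present, with all 6 measured genes each of the rod, cone, ganglion cell and Müller glia lists above the floor. The summed signal of 9 microglia and macrophage markers (Aif1 and Trem2 below the floor) was 29440 to 51761 on control and 63022 to 160394 on injected arrays, in intensity units. That of 6 cone markers was 89557 to 98872 on control and 39995 to 88765 on injected arrays. That of 6 horizontal and amacrine cell markers (Onecut1 below the floor) was 115898 to 132248 and 82446 to 108324. That of 6 ganglion cell markers was 126186 to 138321 and 100042 to 121749. On the log2 scale the cone, horizontal and amacrine, and ganglion cell sums differed by -0.68, -0.35 and -0.25. The sums of rod, bipolar and Müller glia markers were lower on average as well, by -0.28, -0.28 and -0.22, with overlapping groups. The brightest genes weigh most in such sums, Calb1 and Gad1 in the horizontal and amacrine list and Nefl in the ganglion cell list. In the microglia list these were Csf1r and C1qb. Read singly, Calb1, Lhx1, Nefl and Sncg were lower on every injected array. Groups overlapped for Gad1, Slc6a9, Tfap2b, Onecut1, Pou4f1, Rbpms, Slc17a6 and Thy1. In the microglia list C1qb, C1qc, Csf1r, Ptprc and Tyrobp were higher on every injected array. C1qa, Cx3cr1, Trem2 and Aif1 had overlapping groups, and the difference of Aif1 was negative (-1.17). The part of RNA integrity and of cell makeup in the channel results was not tested. In these tissue samples fewer cells of a type and less RNA per cell cannot be told apart.

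Promoters of Kcna2, Kcna5, Kcna6 and Kcnh1 are shown because these 4 are the tested members whose groups did not overlap and for which RefSeq lists a single start. Each sequence covers 250 bases before to 50 bases after the start (RefSeq, GRCm38.p6), 5′ to 3′ on the strand of the gene. Capitals mark GGGCGG, the core letters bound by SP1, or its reverse complement. The windows are chr3:107101317-107101616 (plus strand) for Kcna2, chr6:126535506-126535805 (minus strand) for Kcna5, chr6:126740625-126740924 (minus strand) for Kcna6 and chr1:192190527-192190826 (plus strand) for Kcnh1.
Kcna2: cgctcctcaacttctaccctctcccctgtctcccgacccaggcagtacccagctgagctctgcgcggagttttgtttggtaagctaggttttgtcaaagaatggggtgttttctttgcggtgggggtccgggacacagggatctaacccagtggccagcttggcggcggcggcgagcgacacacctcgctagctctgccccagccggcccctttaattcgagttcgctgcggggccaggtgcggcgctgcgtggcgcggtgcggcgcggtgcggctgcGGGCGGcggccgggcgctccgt
Kcna5: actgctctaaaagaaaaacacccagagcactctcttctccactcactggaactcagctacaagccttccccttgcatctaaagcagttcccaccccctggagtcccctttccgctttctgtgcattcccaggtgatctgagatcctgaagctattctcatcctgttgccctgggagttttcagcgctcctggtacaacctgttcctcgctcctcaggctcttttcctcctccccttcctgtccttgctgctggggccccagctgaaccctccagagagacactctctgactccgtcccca
Kcna6: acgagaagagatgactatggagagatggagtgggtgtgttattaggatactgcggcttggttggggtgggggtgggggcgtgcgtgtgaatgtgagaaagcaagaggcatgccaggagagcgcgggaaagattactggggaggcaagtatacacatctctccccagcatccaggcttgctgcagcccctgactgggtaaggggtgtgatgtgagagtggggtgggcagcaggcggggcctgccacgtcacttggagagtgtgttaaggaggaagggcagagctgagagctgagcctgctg
Kcnh1: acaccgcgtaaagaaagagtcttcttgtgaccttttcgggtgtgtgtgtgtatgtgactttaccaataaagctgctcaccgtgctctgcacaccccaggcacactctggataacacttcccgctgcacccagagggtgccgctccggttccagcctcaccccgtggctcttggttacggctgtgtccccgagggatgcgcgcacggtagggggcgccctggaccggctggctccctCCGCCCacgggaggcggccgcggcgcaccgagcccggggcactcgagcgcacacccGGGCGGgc
The promoters of Kcna2 and Kcnh1 held 31 and 27 CpG pairs and those of Kcna5 and Kcna6 held 4 and 8, against a median of 7 over all RefSeq windows. RefSeq promoters matched 58 of the 77 members, with 77 windows in all. These windows were richer in G and C (median 58% against 52.7%) and in CpG pairs (9 against 7) than all windows, and the part of this in the motif shares was not tested. GGGCGG on either strand was in 48.1% of these windows against 35.7% of all 32851 windows of the same length. The letters TTCNNNGAA, bound by STAT factors, were in 7.79% against 8.3%, and the TATA box letters TATAAA in 6.49% against 13.6%. The EGR letters GCGTGGGCG, which can overlap GGGCGG, were in 0 of the 77 windows against 0.612% of all, and the cyclic AMP response element TGACGTCA in 0 against 1.79%. The 4 windows shown held none of these other motifs. These counts describe letters in a window and no binding was measured.

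**Figure D1:**
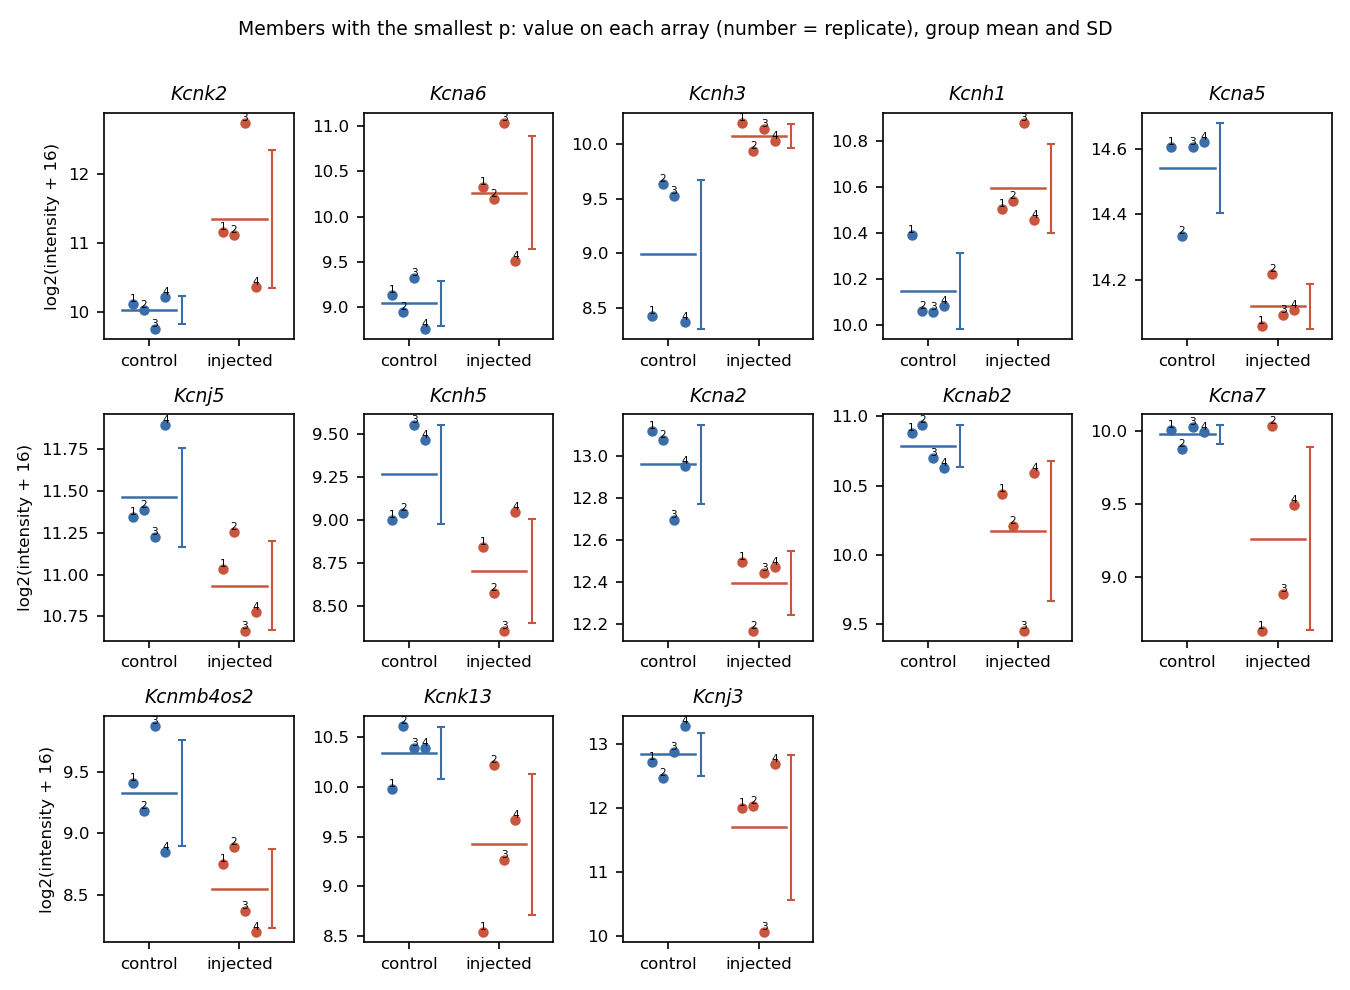
Log2(intensity + 16) on each array for the 13 members with an unadjusted p under 0.05, with the replicate number beside each point, the group mean as a line and the SD as a bar. Vertical scales differ between genes; Kcna2, Kcna5, Kcna6, Kcnab2, Kcnh1, Kcnh3 and Kcnk2 have groups that do not overlap.

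Among the voltage-gated pore subunits of the Kv1 to Kv4 families, all 13 members were tested and 9 differences were negative. At an unadjusted p under 0.05, 1 was higher and 3 were lower (7.69% and 23.1%, against 3.77% and 2.91% of all genes). Kcna2 encodes a delayed-rectifier subunit of axons. It read 13.12, 13.08, 12.70 and 12.95 on control arrays and 12.50, 12.17, 12.45 and 12.47 on injected arrays. Every injected array lay below every control array, by a difference of -0.56 ± 0.18 (SE; limma adjusted p = 0.618). The 2 other tested probe sets of Kcna2 gave -0.37 and -0.22, and the 1 below the floor gave 1.79. The mean of all 4 probe sets differed by 0.16, with the opposite sign.

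Kcna5 encodes a delayed rectifier known from heart, vessels and glia. Its log2 values were 14.60, 14.33, 14.60 and 14.62 in control retina and 14.06, 14.22, 14.09 and 14.11 in injected retina. The groups were separate, with control replicate 2 closest to the injected arrays, and the difference was -0.42 ± 0.16 (SE; adjusted p = 0.709). Kcna7, a subunit described in muscle, was even in control (10.01, 9.88, 10.03 and 9.99) and scattered in injected retina (8.63, 10.03, 8.89 and 9.50). Injected replicate 2 was at the control level, and the difference was -0.72 ± 0.30 (SE; adjusted p = 0.712).

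Kcna6, a further delayed rectifier of neurons, went the other way at its highest-mean probe set. Control arrays gave 9.14, 8.94, 9.33 and 8.76 and injected arrays 10.33, 10.19, 11.03 and 9.51. All 4 injected values were above all controls, a 2.33-fold ratio on this scale and a difference of 1.22 ± 0.31 (SE; adjusted p = 0.532, the smallest of any member). The other 2 tested probe sets of Kcna6 had the opposite sign, at -0.46 ± 0.31 and -0.75 ± 0.58, so the direction for this gene was not settled by its 3 probe sets, whose mean differed by 0.0051. Kcna5, Kcna1 and Kcna6 lie next to each other on chromosome 6, with no other protein-coding gene between them in RefSeq.

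Kcna1, which joins Kcna2 in axonal channels, read 13.04, 13.14, 13.30 and 13.18 in control and 12.90, 12.74, 11.12 and 13.51 in injected retina. Injected replicate 3 was far below the rest, and the difference of -0.60 ± 0.44 (SE; adjusted p = 0.755) became -0.12 without it. Kcna3, a channel of lymphocytes and microglia as well as of neurons, differed by 0.08 ± 0.56 and turned to -0.54 when control replicate 4 was left out and to -0.15 when injected replicate 2 was. Control replicate 4 was low at 6.82 against 9.20 to 9.37 on the other controls. The fast-spiking subunits Kcnc1 and Kcnc2 differed by -0.27 ± 0.19 and -0.53 ± 0.30, and Kcnc2 was at -0.23 without injected replicate 3. For Kcnd2, which carries the transient A-type current of dendrites, the difference was -0.32 ± 0.25. Its 2 other tested probe sets had the same sign (-0.69 and -0.32; the first at an unadjusted limma p of 0.0121), and without injected replicate 1 the probe set used was at -0.13.

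Modifier subunits, which form no channel alone but tune others, had 3 of 8 members above the floor (Kcnf1, Kcng4 and Kcns2). Their differences ran from -0.39 to 0.39 and 0 had an unadjusted p under 0.05. Kcnab2, a cytoplasmic beta subunit that promotes surface expression of axonal channels, stood at 10.88, 10.94, 10.70 and 10.62 in control and at 10.44, 10.21, 9.45 and 10.59 in injected retina. Its groups did not overlap, though control replicate 4 and injected replicate 4 differed by only a small step. The difference was -0.61 ± 0.26 (SE; adjusted p = 0.712) and became -0.38 without injected replicate 3, and its second tested probe set had the opposite sign (0.72 ± 0.49), as had the mean of both (0.055). The related Kcnab1 differed by -0.14 ± 0.22. Of the Kv7 genes, whose channels carry the M-current that restrains repeated firing, Kcnq3 and Kcnq5 were tested, at -0.48 ± 0.23 and -0.52 ± 0.31. A second tested probe set of Kcnq3 had the opposite sign, at 0.29 ± 0.39.

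In the EAG and ERG family 5 of 6 members were tested. At an unadjusted p under 0.05, 2 were higher and 1 was lower (40% and 20%, against 3.77% and 2.91% of all genes). With centring on array medians 1 was higher and 2 were lower. Kcnh3 encodes a channel of forebrain neurons that limits excitability. It read 8.42, 9.64, 9.53 and 8.37 in control and 10.20, 9.94, 10.14 and 10.03 in injected retina. Controls formed a low and a high pair, and all injected arrays lay above both, by 1.09 ± 0.32 (SE; adjusted p = 0.588). The other 2 tested probe sets of Kcnh3 had the same sign, at 0.43 and 0.32.

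Kcnh1, the founding EAG channel, measured 10.39, 10.06, 10.05 and 10.08 in control and 10.51, 10.54, 10.88 and 10.46 in injected retina. The groups were separate, with control replicate 1 close to the injected arrays, and the difference was 0.45 ± 0.18 (SE; adjusted p = 0.712). Kcnh5, its nearest relative, had 9.0, 9.04, 9.55 and 9.47 in control and 8.84, 8.58, 8.36 and 9.05 in injected retina. These groups overlapped at injected replicate 4, and the difference of -0.56 ± 0.22 (SE; adjusted p = 0.709) was -0.37 with the deposited scaling. Kcnh2, the ERG channel of cardiac repolarisation, differed by -0.46 ± 0.25 and was at -0.26 without injected replicate 2.

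**Figure D2:**
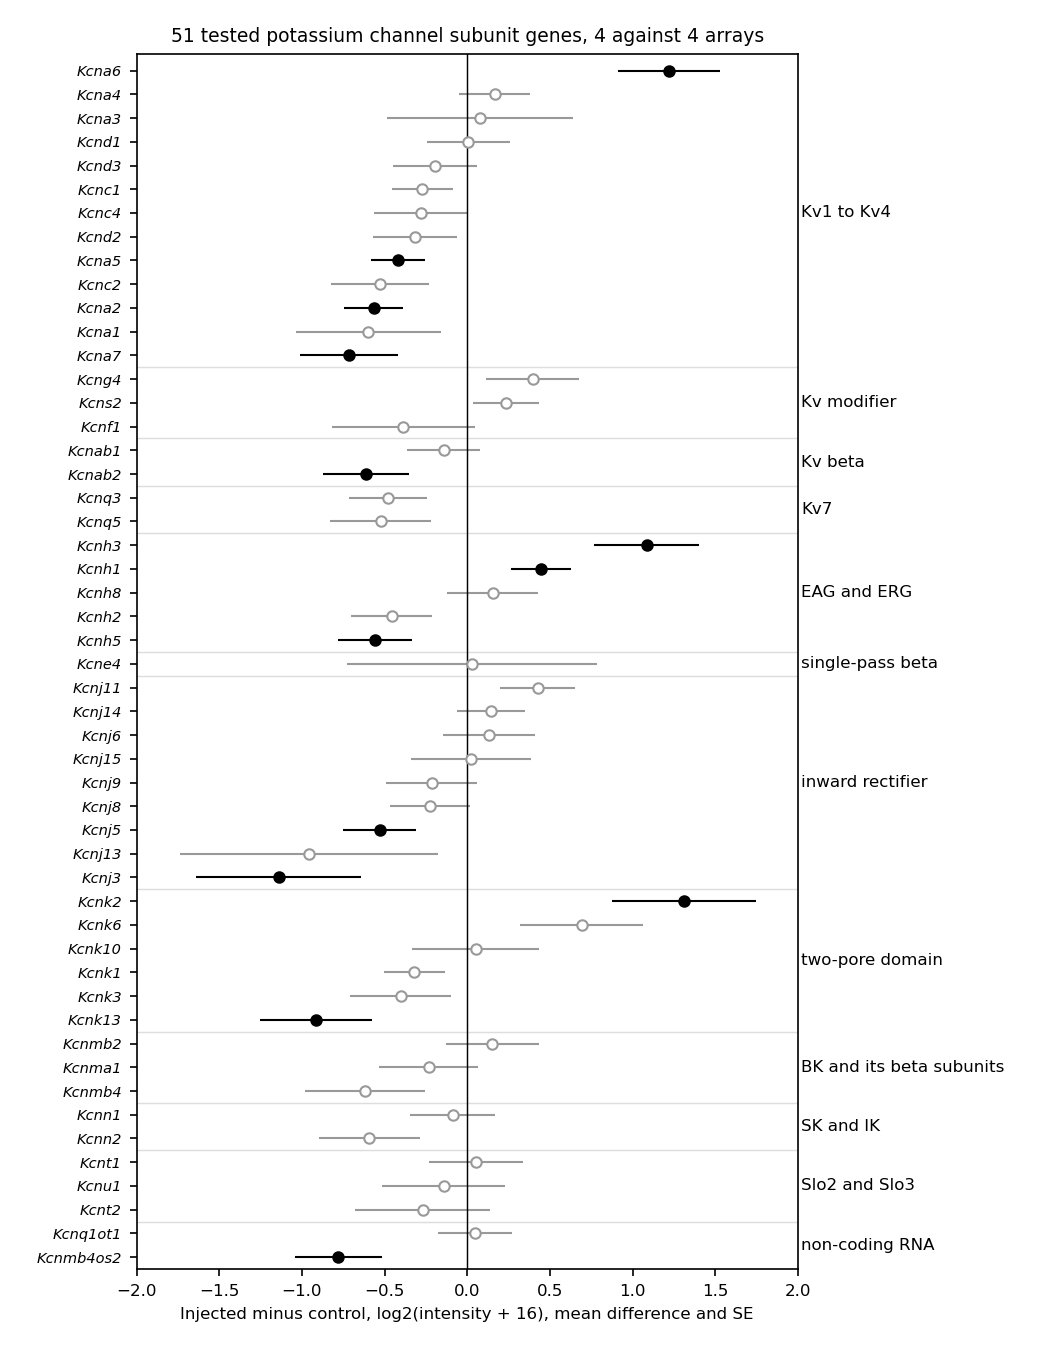
Injected minus control difference in log2(intensity + 16), with SE from limma, for the 51 tested members ordered by family. Filled points have an unadjusted p under 0.05 (13 members) and open points do not; 31 of the 51 lie left of 0.

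Of 14 inward rectifiers 9 were tested, and 2 of these, both lower, had an unadjusted p under 0.05 (22.2%, against 2.91% of all genes). Both form G-protein-gated channels that open when transmitter receptors release beta-gamma subunits. Kcnj3 read 12.72, 12.46, 12.87 and 13.27 in control and 11.99, 12.03, 10.06 and 12.69 in injected retina. Injected replicate 4 lay among the controls and injected replicate 3 was far below all others. The difference was -1.14 ± 0.50 (SE; adjusted p = 0.712) and became -0.60 without injected replicate 3, and a second tested probe set was at -0.11.

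Kcnj5, a partner of Kcnj3, had values of 11.34, 11.38, 11.22 and 11.90 in control and 11.03, 11.26, 10.67 and 10.77 in injected retina. Only injected replicate 2 reached into the control range, and the difference was -0.53 ± 0.22 (SE; adjusted p = 0.712). The other subunits of this kind, Kcnj9 and Kcnj6, differed by -0.22 ± 0.28 and 0.13 ± 0.28. The ATP-sensitive pore subunits Kcnj11 and Kcnj8, the latter a mark of pericytes and smooth muscle, differed by 0.43 ± 0.23 and -0.23 ± 0.24. For Kcnj14, a strong rectifier of neurons, the difference was 0.15 ± 0.21 and was -0.030 with centring on array medians.

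Kcnj13 encodes the rectifier of the apical membrane of pigment epithelium, a layer that a retina dissection can bring along. It read 11.86, 13.54, 10.06 and 10.74 in control and 10.75, 10.28, 12.06 and 9.29 in injected retina. The highest value was in control replicate 2 and the lowest in injected replicate 4, and the groups overlapped throughout. The summed signal of 6 pigment epithelium markers (Best1 below the floor) was also highest on control replicate 2, at 0.56 log2 units above the control mean, and lowest on injected replicate 4, at -1.70. It ran from 72390 to 144450 intensity units on control and from 30271 to 89197 on injected arrays. Ttr, the brightest gene of this list, made up most of the sum (log2 16.89 on control replicate 2 and 14.82 on injected replicate 4). Read singly, Ttr, Lrat and Rgr were lowest on injected replicate 4, and Rpe65, Rdh5 and Best1 on injected replicate 2. Ttr, Rpe65, Lrat and Rdh5 were highest on control replicate 2, and Rgr and Best1 were not. Melanin genes (4 of 5 above the floor) were at 2.92 above their control mean on control replicate 2. The part of this layer in the Kcnj13 values was not tested. The difference of Kcnj13 was -0.96 ± 0.78 (SE; adjusted p = 0.769), and -0.30 without control replicate 2, -0.53 without injected replicate 4 and -1.47 without injected replicate 3.

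Two-pore domain channels had 6 of 12 members tested. At an unadjusted p under 0.05, 1 was higher and 1 lower (16.7% each, against 3.77% and 2.91% of all genes). Kcnk2 encodes TREK, a leak channel opened by membrane stretch and fatty acids. Control arrays read 10.12, 10.03, 9.76 and 10.22 and injected arrays 11.16, 11.11, 12.73 and 10.37. All injected values were above all controls, with injected replicate 3 highest and injected replicate 4 close to control, and the ratio was 2.48-fold. The difference of 1.31 ± 0.43 (SE; adjusted p = 0.643) was the largest positive one among the tested members. It was 0.87 without injected replicate 3, and Kcnk2 had no other probe set.

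Kcnk13 encodes THIK, the leak channel that sets the resting voltage of microglia. Its values were 9.98, 10.61, 10.39 and 10.39 in control and 8.54, 10.22, 9.27 and 9.66 in injected retina. Only injected replicate 2 lay inside the control range, and the difference was -0.92 ± 0.34 (SE; adjusted p = 0.709). A second probe set of Kcnk13 below the floor had the opposite sign (0.51). The microglia list summed to 0.94, 0.80, 2.14 and 0.90 log2 units over its control mean on injected arrays 1 to 4. Csf1r and C1qb, its brightest genes, weighed most in that sum.

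Kcnk6, a channel for potassium efflux in macrophages, stood between 9.67 and 10.33 in control and at 10.39, 10.30, 11.93 and 10.33 in injected retina. Injected replicate 3, the array with the highest microglia signal and the one farthest from its group, was far above the others. That array held the highest value of all 8 at 27.6% of all probe sets tested and the lowest at 29.5%. The difference of 0.69 ± 0.37 (SE; adjusted p = 0.730) was 0.31 without that array. Kcnn4, the intermediate-conductance channel of leukocytes, was below the floor with overlapping groups (mean ± SD 7.70 ± 0.95 for the control arrays and 7.76 ± 1.26 for the injected arrays). Kcnk1, a leak channel of neurons and glia, differed by -0.32 ± 0.18 (-0.56 with centring on array medians), and its second tested probe set had the opposite sign (0.49 ± 0.39), as had the mean of both (0.085).

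**Figure D3:**
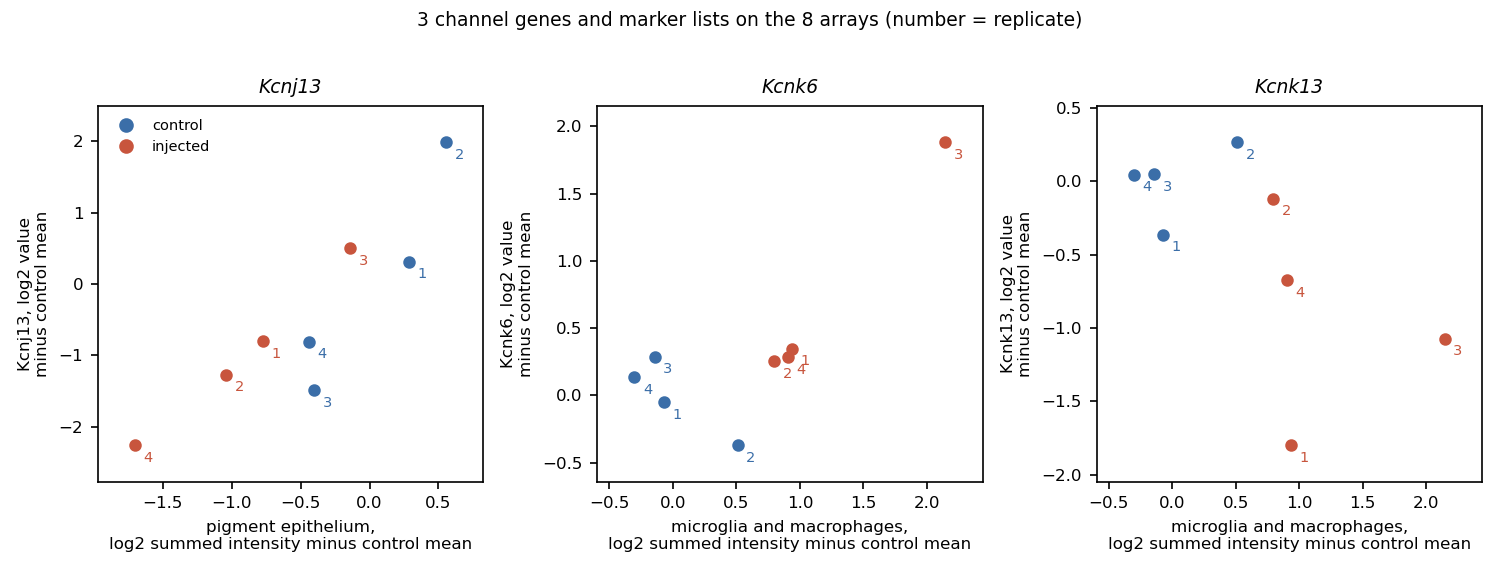
Log2 value minus the control mean for Kcnj13, Kcnk6 and Kcnk13 on each of the 8 arrays, against the log2 summed intensity of 6 pigment epithelium or 9 microglia and macrophage markers minus its control mean. Control replicate 2 is highest in both values of the Kcnj13 panel, and injected replicate 3 stands apart at 2.14 on the microglia axis.

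Of the calcium-activated channels and their beta subunits 5 of 8 were tested, and 0 had an unadjusted limma p under 0.05. Kcnma1, the pore of the large-conductance channel, read 14.06, 12.97, 13.77 and 13.12 in control and 13.34, 12.72, 13.64 and 13.28 in injected retina. These groups overlapped, with a difference of -0.23 ± 0.30. All 5 probe sets of Kcnma1 were tested and all were negative, from -1.14 to -0.09, and 0 had an unadjusted p under 0.05. Its neuronal beta subunit Kcnmb4 differed by -0.62 ± 0.36. Kcnmb4os2, a non-coding RNA named as an opposite-strand transcript of Kcnmb4, had 9.41, 9.18, 9.87 and 8.85 in control and 8.75, 8.89, 8.36 and 8.20 in injected retina. The groups met at injected replicate 2 and control replicate 4, and the difference was -0.78 ± 0.26 (SE; adjusted p = 0.658).

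Kcnn2, a small-conductance channel behind the afterhyperpolarisation, was at 11.11, 11.70, 11.29 and 11.19 in control and 11.20, 10.85, 9.84 and 11.03 in injected retina. Injected replicate 3 was again lowest, and the difference of -0.59 ± 0.31 (SE; adjusted p = 0.725) was -0.30 without it. The sodium-activated channels Kcnt1 and Kcnt2 differed by 0.05 ± 0.28 and -0.27 ± 0.41. Both signs turned without injected replicate 3, to -0.22 and 0.20, and Kcnt1 was at -0.018 without control replicate 3. Kcne4, the only single-pass beta subunit tested of 4, differed by 0.03 ± 0.75, with control arrays from 7.79 to 10.98, and moved to -0.48 when control replicate 3 was dropped and to 0.64 when injected replicate 3 was. The non-coding RNA Kcnq1ot1 differed by 0.05 ± 0.22, and its 3 other tested probe sets gave 0.06, -0.68 and -1.0, so its sign was not settled either.

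Where a gene had several probe sets, their signs often disagreed. Of the 51 tested members 18 had at least 2 tested probe sets, and in 7 of these a probe set had the opposite sign to the one used. Of the 13 members with an unadjusted p under 0.05, 6 could be checked in this way, and Kcna6 and Kcnab2 were the 2 with opposite signs, whereas all tested probe sets of Kcna2, Kcnh1, Kcnh3 and Kcnj3 shared a sign. Kcna5, Kcna7, Kcnh5, Kcnj5, Kcnk13, Kcnk2 and Kcnmb4os2 were read from 1 tested probe set. With each gene read as the mean of all its probe sets, 43 members were above the floor. Of these, 4 were higher and 6 lower at an unadjusted p under 0.05, where 7.89% of all genes so read had such a p. Groups did not overlap at 4 of the 43, and the share over all genes is not given for this reading.

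**Figure D4:**
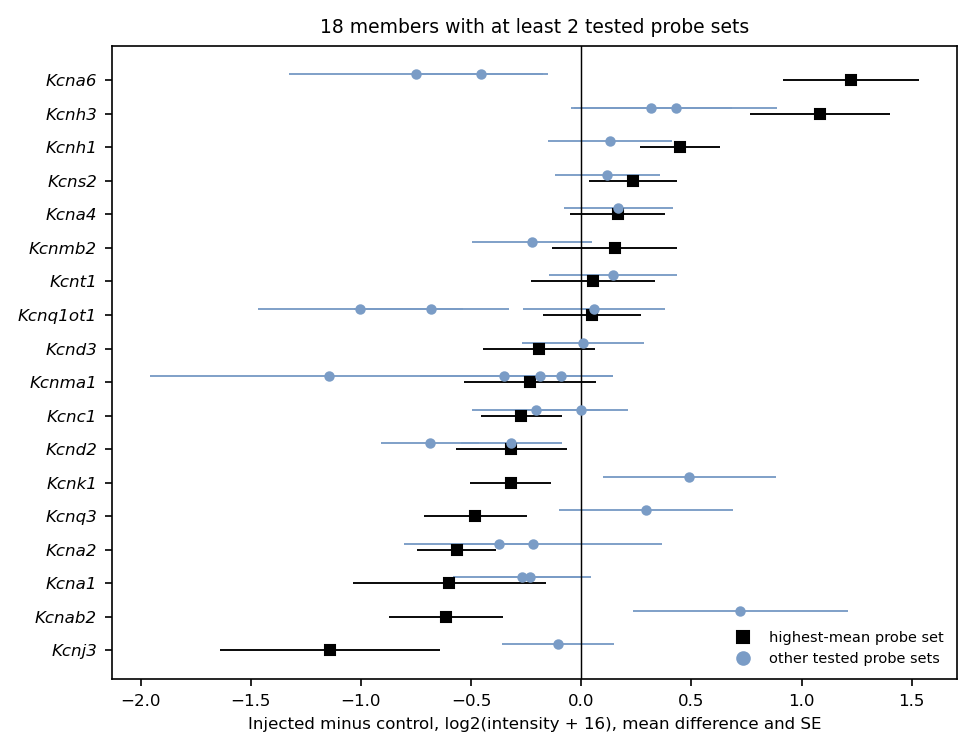
Injected minus control difference in log2(intensity + 16), with SE from limma, for every tested probe set of the 18 members with at least 2. Squares are the highest-mean probe sets used for the gene and circles the others; in Kcna6 and Kcnab2 they fall on opposite sides of 0.

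The 26 members below the floor had mean log2 values of 5.33 to 8.28 and were left out of the test. They include Kcnj2 and Kcnj16, rectifiers described in Müller glia, which differed by 0.14 and 0.01 with overlapping groups. The nearest members on either side of the floor were Kcnk15 at 0.21 below and Kcnj15 at 0.09 above. Groups did not overlap for 4 of the 26, against 3.15% of the 5307 genes below the floor (1.81% higher and 1.34% lower). These 4 were picked out here after their values were seen. Kcnmb1, the smooth muscle beta subunit of the large-conductance channel, read 7.08, 6.55, 6.85 and 7.90 in control and 8.47, 9.48, 9.26 and 9.41 in injected retina, all higher and above or near the floor. Its second probe set differed by 0.17, and the summed signal of 5 pericyte and smooth muscle markers (Myh11 below the floor) was 10820 to 30528 on control and 8249 to 23241 on injected arrays.

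Kcnk15, a two-pore subunit that carries no current alone, was at 7.86, 7.08, 8.03 and 7.63 in control and 9.16, 9.06, 8.88 and 8.58 in injected retina. The injected group was the higher one throughout. Kcnk5, an acid-sensitive leak channel of epithelia, read 7.79, 8.64, 8.01 and 6.64 in control and 5.62, 5.43, 6.27 and 6.21 in injected retina, and its second probe set differed by -0.03. Kcnj12, a strong inward rectifier, gave 9.39, 8.35, 8.62 and 9.31 in control and 8.18, 6.35, 7.52 and 8.16 in injected retina. The injected group was the lower one on all arrays for both genes. When probe sets below the floor were also fitted, limma gave differences of 2.06 ± 0.36 for Kcnmb1, 1.27 ± 0.27 for Kcnk15, -1.89 ± 0.43 for Kcnk5 and -1.37 ± 0.46 for Kcnj12 (SE), with adjusted p from 0.404 to 0.741.

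**Figure D5:**
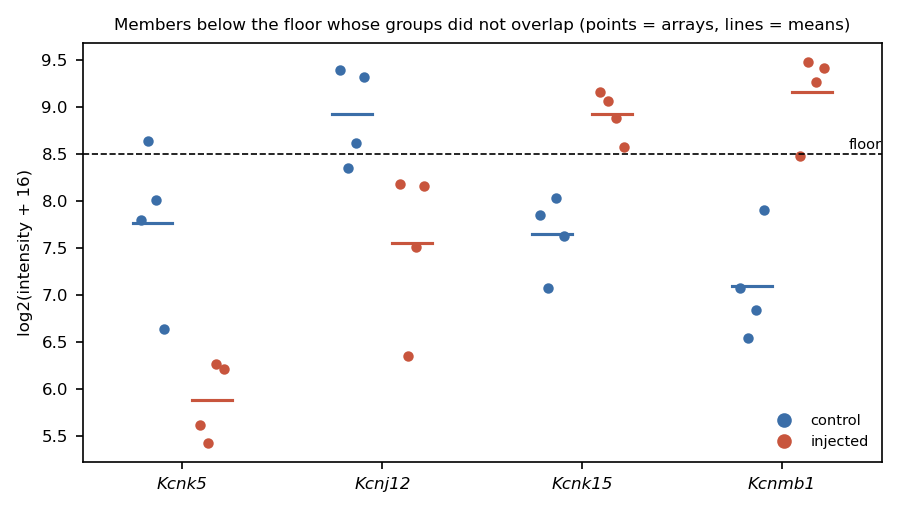
Log2(intensity + 16) on each array for the 4 members below the floor whose groups did not overlap, with group means as lines. The dashed line is the floor at 8.5; Kcnk5 and Kcnj12 are lower and Kcnk15 and Kcnmb1 higher on every injected array.

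Partners and regulators of these channels were followed in a list of 40 genes, of which 33 were measured and 30 tested. Of these 0 passed the adjusted threshold. At an unadjusted p under 0.05 limma gave 1 higher and 2 lower (10% together, against 6.68% of all genes). Their median difference was -0.01, with 15 negative and 15 positive. Rest, a repressor of neuronal genes that include channel genes, was at 10.35, 10.72, 10.22 and 10.45 in control and 9.99, 9.79, 9.33 and 9.92 in injected retina. All injected arrays lay below all controls, and the difference was -0.67 ± 0.21 (SE; adjusted p = 0.613). Kcnip3, a calcium sensor that binds A-type channels and also acts on transcription, read 8.79, 8.76, 8.54 and 8.70 in control and 9.19, 9.19, 9.0 and 9.58 in injected retina, all higher. Its difference was 0.54 ± 0.19 (SE; adjusted p = 0.664). Dlg4, the scaffold PSD-95, differed by -0.83 ± 0.36 (adjusted p = 0.713), with injected replicate 1 inside the control range. The A-type channel partners Dpp6 and Dpp10 differed by 0.38 ± 0.24 and 0.56 ± 0.27, and Kcnip1, Kcnip2 and Kcnip4 by -0.71 ± 0.36, 0.33 ± 0.25 and -0.47 ± 0.35. The count of partners was 6 without injected replicate 4 and 5 without injected replicate 1. The share of all probe sets was then 9.01% and 8.49%, against 6.99% in the main fit.

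Of the 3 channel genes left out of the members, Kcne2 differed by -1.30 ± 0.33, Kcnj10 by 0.16 ± 0.18 and Kcnv2 by 0.13 ± 0.20 (SE), with adjusted p of 0.532, 0.812 and 0.857.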

How the data were processed

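RNA of 8 mouse retina samples (4 control, 4 injected) had been measured on Affymetrix arrays. The table the authors deposited holds linear intensity values. Trimmed of 2% of its values at both ends, every array averages 2500, as a global scaling gives. Software and build were not given in the sources used here. A change in total RNA is hidden by scaling of this kind.

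The table held 45101 probe sets. The 64 array controls were left out of tests. Because array medians differed by 1.55 times, over the preset 1.5, the deposited intensities were quantile-normalised with limma 3.58.1 under R 4.3.3, then put on the log2 scale as log2(intensity + 16). Probe sets at or above the 40th percentile of mean log2 value (345 intensity units) were tested. Injected was compared with control using limma's lmFit with eBayes, whose prior weighed 3.3 degrees of freedom, and p-values were Benjamini-Hochberg adjusted over 27022 probe sets (threshold 0.05). Array quality values and marker sums were compared by exact permutation over 70 assignments. All 77 members matched RefSeq by Entrez identifier, and 0 symbols changed. Only Kcnc4 of the tested members was read from an s_at probe set, which can bind related transcripts.

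Members and lists were chosen with earlier results of these data known. Named genes were members with an unadjusted p under 0.05, the smallest p of each family, and 24 channels known from retina, glia, vessels or leukocytes, 22 of them measured, and partners with an unadjusted p under 0.05. Other genes were named after their values were seen. Alternatives were pseudocounts of 1 and 64, no filter, deposited scaling, median centring, a trended robust prior, array weights (statmod 1.5.0), an unmoderated test, the replicate number as a block, a fit with 1 probe set for each gene, other readings of a gene, and leaving out each array. Leaving out control replicate 2 with injected replicate 3, and averaging probe sets for named genes and partners, were added after the data were seen. The scripts were tested on simulated data. Figures were drawn with matplotlib 3.10.9 (Python 3.11.15).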

Additional observations from a re-analysis of the deposited data

Results flagged for a closer look

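Among 74 groups of 4 arrays of the named genes, 7 held 1 array whose gap to the nearest other took up most of the range of the group, beyond the critical value of Dixon's test, and chance gives about 1 in 20 (5%). Control replicate 4 of Kcna3 was at 6.82 against 9.20 to 9.37 on the other controls. Control replicate 3 of Kcnj2 was at 7.30 against 4.82 to 5.24, all below the floor. Injected replicate 3 stood apart for Kcnk6, at 11.93 against 10.30 to 10.39, and for Kcnt2, at 8.54 against 10.31 to 10.50. Control replicate 1 of Kcnh1 was at 10.39 against 10.05 to 10.08, and control replicate 2 of Kcna5 at 14.33 against 14.60 to 14.62. Injected replicate 2 of Kcna2 was at 12.17 against 12.45 to 12.50.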

How the results depend on the processing

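No member passed the adjusted threshold under any alternative run, and the smallest adjusted p of a named member was 0.151, for Kcna6 without injected replicate 4. Over all probe sets 8 passed with array weights, 4 genes with probe sets averaged, and 0 to 34 when 1 array was left out (34 without injected replicate 4). The lower members with an unadjusted p under 0.05 (9) were 5 with the deposited scaling, 4 with the replicate block and 3 to 8 when 1 array was left out, and the higher ones (4) were 3 to 5 when 1 array was left out. With no filter there were 6 higher and 6 lower. The share of all probe sets with an unadjusted p under 0.05 moved as well (6.99% in the main fit). It was 6.08% with no filter and 4.90% to 9.01% when 1 array was left out. Members with groups not overlapping (7) were 11 with no filter and 4 with probe sets averaged. They were 8 to 12 when 1 array was left out, fewer arrays making separation easier. Without control replicate 2 and injected replicate 3 together they were 12. The share of non-overlapping groups over all genes is not given for these alternatives, so the member counts are values only. The median difference of the tested members (-0.23) was -0.14 with no filter, -0.38 with median centring, -0.061 with probe sets averaged and -0.30 to -0.18 when 1 array was left out. Partners with an unadjusted p under 0.05 (3) were 2 to 6 when 1 array was left out and 2 with probe sets averaged, a reading under which Rest and Kcnip3 lay below the floor. Of 599 values of named members under alternatives 578 kept their sign. With probe sets averaged, added for single genes after the data were seen, Kcna2 (0.16), Kcnab2 (0.055) and Kcnk1 (0.085) turned, and Kcnk13 was below the floor. The others that turned were Kcnj14 (-0.030 with median centring), Kcnt1 (-0.075 with median centring, -0.21 with array weights) and Kcnt2 (0.10 with array weights), and, when 1 array was left out, Kcnj14 (-0.011 to 0.22), Kcnt1 (-0.22 to 0.21), Kcnt2 (-0.46 to 0.20), Kcna3 (-0.54 to 0.31) and Kcne4 (-0.48 to 0.64). Without control replicate 2 and injected replicate 3 together Kcnj14 was at -0.068, Kcnt1 at -0.21 and Kcnt2 at 0.15. The cause was not tested. Deviations of same-numbered control and injected arrays correlated at -0.029 to 0.084, and only replicate 1 correlated best with its own number, so the numbers were not taken as pairs and the replicate block is given as a value only. Signal over background limits the 26 members below the floor.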

Other observations

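Transmitter receptor genes and other ion channel genes of neurons, grouped by symbol with the data known, were read in the same way. The receptor list was not limited to ion channels, since it also took symbols that start with Grm or Gabbr. Of 45 glutamate, GABA and glycine receptor genes 37 were tested, and at an unadjusted p under 0.05 limma gave 2 higher and 5 lower (18.9%), with a median difference of -0.17. Of 35 voltage-gated sodium and calcium channel genes 30 were tested, with 0 higher and 2 lower (6.67%) and a median of -0.07. Of both sets 0 passed the adjusted threshold. The potassium channel genes had 13 of 51 (25.5%), and all genes tested had 6.68%. The differences between these shares were not tested.

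Members that neighbour each other in RefSeq, with no other protein-coding gene between them, formed 7 pairs. Differences were -0.42 for Kcna5, -0.60 for Kcna1 and 1.22 for Kcna6 on chromosome 6, and 0.08 for Kcna3 and -0.56 for Kcna2 on chromosome 3. They were -0.53 for Kcnj5 and -0.37 for Kcnj1 on chromosome 9, 0.13 for Kcnj6 and 0.02 for Kcnj15 on chromosome 16, 0.01 for Kcnj16 and 0.14 for Kcnj2 on chromosome 11, and -1.89 for Kcnk5 and -0.08 for Kcnk16 on chromosome 14. Kcnj1, Kcnj2, Kcnj16, Kcnk5 and Kcnk16 were below the floor.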
